A study of Rattus norvegicus with 6 samples.

Results

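The protamine cluster is a run of 4 genes on rat chromosome 10, Prm1, Prm2, Prm3 and Tnp2, followed by Socs1. Its members here were the annotated CpG sites whose nearest transcript start is that of 1 of the 4 genes, together with every CpG position between 4795000 and 4835000 (rn4) with 10 reads or more in all 6 libraries. This gave 26 positions of 424646 in all. Of these, 4 were annotated sites and all 4 belonged to Prm3, so 1 of the 4 genes was represented in the annotated table. Prm1, Prm2 and Tnp2 had 0 annotated sites. The cluster was chosen by the measured difference between SNL and Sham at Prm3 in these same libraries, so the difference between the groups at Prm3 is given as a description. Where a test run over all positions or genes also covers Prm3, its call is stated for completeness and supports nothing.

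DNA methylation was measured by reduced representation bisulfite sequencing, in which DNA is cut by MspI at CCGG and unmethylated cytosines are read as T. The tissue was the dorsal root ganglion (DRG), which holds the cell bodies of sensory neurons, of adult male Sprague-Dawley rats 8 to 9 weeks old. The SNL group (n = 3) had the left L5 and L6 spinal nerves ligated, a model of neuropathic pain, and the Sham group (n = 3) had surgery without ligation, which the protocol places on the other side of the body. Both were sampled 3 weeks after surgery. The labels do not say whether libraries come from separate animals or whether SNL and Sham libraries share an animal, so the spread between libraries may be technical in part. Whole ganglia hold neurons, glia and other cells, and a changed share of one cell type cannot be told apart from changed methylation within cells. Methylation does not show whether a gene was expressed, so the tissue label could not be checked against expressed markers.

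Protamines are small, arginine-rich proteins that replace histones in the nucleus of the maturing sperm cell. Prm1 and Prm2 encode the protamines proper. Tnp2 encodes a transition protein, which sits on the DNA between the removal of histones and the arrival of protamines. Prm3 lies between them, and in the mouse its product is an acidic protein found in the cytoplasm of late spermatids. All 4 genes are known for expression in spermatids and are not known as genes of sensory neurons. Socs1, at the end of the cluster, encodes a suppressor of cytokine signalling that acts on Janus kinases and is used in many tissues.

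The promoters of the cluster differ in their CpG content. The sequences below run from 250 bases before to 50 bases after the start of each gene, from RefSeq on the build GRCr8, on the plus strand, with each CG in capitals. They are shown for their CG letters, which this assay can read only in fragments cut at CCGG.
Prm1, chr10:5378490-5378789: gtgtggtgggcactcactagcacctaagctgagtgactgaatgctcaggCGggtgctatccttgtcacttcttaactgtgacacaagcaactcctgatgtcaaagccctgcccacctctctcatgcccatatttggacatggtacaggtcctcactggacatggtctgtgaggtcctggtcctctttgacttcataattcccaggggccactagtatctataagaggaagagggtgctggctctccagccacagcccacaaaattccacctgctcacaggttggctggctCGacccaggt
Prm3, chr10:5384144-5384443: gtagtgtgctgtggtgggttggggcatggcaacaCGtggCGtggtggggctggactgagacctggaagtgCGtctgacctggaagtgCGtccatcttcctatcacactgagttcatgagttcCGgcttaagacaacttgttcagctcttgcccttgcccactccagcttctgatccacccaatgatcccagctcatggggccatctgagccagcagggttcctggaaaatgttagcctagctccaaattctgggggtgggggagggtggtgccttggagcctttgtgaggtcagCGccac
Tnp2, chr10:5386485-5386784: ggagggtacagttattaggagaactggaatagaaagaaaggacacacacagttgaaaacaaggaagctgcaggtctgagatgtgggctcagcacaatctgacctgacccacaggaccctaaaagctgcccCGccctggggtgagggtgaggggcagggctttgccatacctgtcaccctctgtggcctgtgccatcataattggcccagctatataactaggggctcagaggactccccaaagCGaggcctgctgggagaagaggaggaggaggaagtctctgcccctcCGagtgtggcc
Socs1, chr10:5389324-5389623: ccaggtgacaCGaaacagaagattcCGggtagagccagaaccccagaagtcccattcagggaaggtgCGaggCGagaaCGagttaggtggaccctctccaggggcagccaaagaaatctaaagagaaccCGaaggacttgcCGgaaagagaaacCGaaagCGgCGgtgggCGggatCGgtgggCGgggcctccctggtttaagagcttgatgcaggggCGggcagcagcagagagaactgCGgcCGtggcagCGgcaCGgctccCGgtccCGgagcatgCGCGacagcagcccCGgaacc
The set of promoter sequences used here held none for Prm2. Prm1 had 2 CpGs in 300 bases, Prm3 had 6 and Tnp2 had 3, while the Socs1 promoter had 23. The median over 33469 rat promoters of this length was 7. The MspI motif CCGG, which reads the same on both strands, was found 1 time in the Prm3 window, with its CG at -128 from the start, and 5 times in that of Socs1. It was not found in those of Prm1 and Tnp2, and 51.4% of all promoters held it. The motif TGACGTCA, the full cyclic AMP response element, was searched on both strands and was found in none of the 4 windows, against 1.83% of all promoters. The motif TATAA, on either strand, was found 1 time each at Prm1 and Tnp2 and not at Prm3 or Socs1, against 26.2% of all promoters.

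Coverage summed over listed nuclear CpG positions was 29342048 to 34226084 base calls in SNL libraries and 27131679 to 32068534 base calls in Sham libraries. A read that covers several CpGs is counted at each of them, so these sums are not numbers of reads. Mean methylation over the 424646 positions was 60.5 to 61.8% in SNL and 61.6 to 62.2% in Sham libraries, a difference of -0.836 points. In the cluster 219 positions were listed in at least 1 library, 126 in all 6, 71 with at least 5 reads in all 6 and 26 with at least 10.

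The 4 Prm3 CpGs lay 162, 174, 185 and 193 bp downstream of the Prm3 start (4814765, rn4), at positions 4814927, 4814939, 4814950 and 4814958 of chromosome 10. The authors' flags place them in a promoter and an exon, outside CpG islands and shores. They lie beyond the end of the window printed above. The CpG at 162 bp was methylated in 31.2%, 34.1% and 29.8% of reads in SNL 1 to 3, against 54.0%, 60.7% and 56.6% in Sham 1 to 3. At 174 bp the levels were 34.7%, 32.7% and 35.4% in SNL libraries and 63.8%, 61.7% and 66.7% in Sham libraries. Every SNL library was below every Sham library at both CpGs. At 185 bp the levels were 39.6%, 34.1% and 34.4% in SNL libraries and 62.9%, 62.2% and 61.4% in Sham libraries. At 193 bp they were 25.3%, 29.0% and 25.2% in SNL libraries and 48.5%, 55.6% and 55.1% in Sham libraries. These groups did not overlap either.

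**Figure D1:**
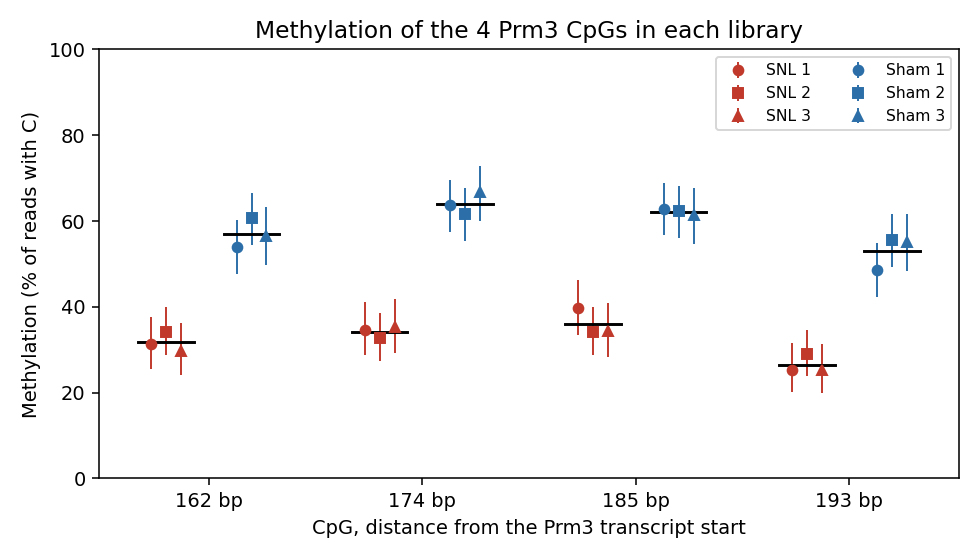
Methylation (% of reads with C, y axis) at the 4 Prm3 CpGs, by distance from the transcript start (x axis), for 3 SNL (red) and 3 Sham (blue) libraries; vertical lines are Wilson 95% intervals and black bars group means. All SNL points lie between 25.2% and 39.6% and all Sham points between 48.5% and 66.7%.

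Averaged over the 4 CpGs, methylation was 32.7%, 32.5% and 31.2% in SNL 1 to 3 and 57.3%, 60.0% and 59.9% in Sham 1 to 3. The group means were 32.1% ± 0.817 and 59.1% ± 1.55 (SD, n = 3 each), a difference of -27.0 points ± 1.01 (SE). The single CpGs differed by -25.4 ± 2.32, -29.8 ± 1.65, -26.1 ± 1.86 and -26.6 ± 2.58 points (SE), in order of distance. The 4 CpGs span 32 bases, less than 1 read of 50 bases, and their coverage was nearly equal, for example 221, 222, 222 and 221 reads in SNL 1. They therefore rest on largely the same reads and count as 1 measurement per library, not as 4. Coverage was 205 to 267 reads, so a single value had a Wilson 95% interval such as 25.5 to 37.6% for the first CpG in SNL 1. Reads carry no molecular identifiers, and intervals cover counting error only.

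The 4 CpGs kept a similar order of levels within each library. The CpG at 193 bp was the lowest of the 4 in 6 of 6 libraries. The CpG at 162 bp was the second lowest in 5 of 6, the exception being SNL 2. The gap between the highest and the lowest CpG was 14.3, 5.14 and 10.1 points in SNL libraries and 15.2, 6.64 and 11.6 points in Sham libraries, so the groups overlapped in that gap while they were apart in level.

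By size of loss the 4 CpGs ranked 6, 12, 13 and 17 of the 32674 annotated sites, and 501, 937, 1015 and 1166 of all 424646 positions, which include shallower ones. Over all 26 cluster positions, the groups did not overlap, with SNL lower, at 4 of 4 Prm3 sites and 0 of 22 others, where the share over all 424646 positions was 6.62% (3.59% with SNL higher). In a logistic test moderated with limma and adjusted over all positions, 4 of 4 Prm3 sites and 0 of 22 others were called lower in SNL, beside 0.315% of all positions (0.399% in either direction and 0.0834% higher). This contrast chose the members, so nothing is read from these counts. The calls depended on the test and were lost (0 of 26) with an unmoderated spread, with limma on logit values, with a replicate block and with unvarying positions kept in the moderation, settings that called 0 of all 424646 positions. The mean difference of the Prm3 sites was -27.9 to -26.5 points without any 1 library.

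The level of Prm3 was also set beside other promoters. Of 462 annotated promoter sites outside islands and shores, 45.7% had a Sham mean under 20%, 28.8% a Sham mean of 20 to 80% and 25.5% one above 80%. The Prm3 mean was higher than 50.4% of these sites in SNL libraries and higher than 59.1% of them in Sham libraries. All 462 sites averaged 40.1% ± 0.355 in SNL and 41.1% ± 0.345 in Sham libraries (SD, n = 3 each). Losses at least as large as the smallest of the 4 were seen at 4 of the 462 sites, which are the Prm3 sites themselves. Prm3 was of intermediate level in both groups.

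Around the 4 CpGs the assay read few molecules. Another 22 positions were listed within 1000 bp of the Prm3 start, none with more than 21 reads in any library, against at least 205 at the 4 CpGs. Some positions, such as those at 151 and 152 bp, are neighbours with separate counts. Such a pair can be the 2 strands of 1 CpG, so listed positions are not always separate CpGs. Upstream, 6 CpGs at -881 to -737 bp, with 8 to 21 reads each, were methylated at 75.0%, 77.8% and 88.4% in SNL libraries and 78.4%, 80.0% and 77.7% in Sham libraries, with reads pooled over the CpGs. These groups overlapped, with a difference of 1.70 points ± 4.13 (SE). Downstream, 8 positions at 317 to 454 bp had 0 to 12 reads and were methylated in 82.9% of 76 base calls in SNL and 84.2% of 57 in Sham libraries. Per library these positions stood at 82.5%, 79.0% and 88.2% in SNL and 89.7%, 94.4% and 50.0% in Sham libraries, a difference of 5.19 points ± 14.3 (SE). Between the start and the first of the 4 CpGs, 6 positions at 121 to 158 bp had 0 to 13 reads and were methylated in 38.5% of 39 base calls in SNL and 43.9% of 82 in Sham libraries. The values per library were 40.0%, 7.69% and 62.5% in SNL and 33.3%, 46.2% and 71.4% in Sham libraries, so each group alone spanned more than the difference at the 4 CpGs. At -126 bp, near the CCGG of the printed window, 0 to 2 reads were listed per library. Both outer blocks were thus highly methylated in each group, and a change at the positions next to the 4 CpGs was not detectable at this depth.

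The 2 upstream CpGs at -776 and -737 bp fell just outside the coverage minimum, with 9 reads in their shallowest library. The first stood at 64.3%, 52.9% and 69.2% in SNL libraries and 93.3%, 66.7% and 60.0% in Sham libraries. The second stood at 85.7%, 100.0% and 100.0% in SNL libraries and 80.0%, 77.8% and 100.0% in Sham libraries. The groups overlapped at both, and the means differed in opposite directions. Just inside the minimum, with 10 reads in the shallowest library, were 3 positions at 6823, 6986 and 12605 bp downstream. At 6823 bp the levels were 54.5%, 42.9% and 38.5% in SNL libraries and 50.0%, 90.9% and 76.9% in Sham libraries. The groups overlapped, and the difference of -27.3 points had an SE of 12.9. At 6986 bp the levels were 53.8%, 50.0% and 50.0% in SNL and 15.4%, 50.0% and 69.2% in Sham libraries, and the Sham libraries alone spanned the SNL values.

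**Figure D2:**
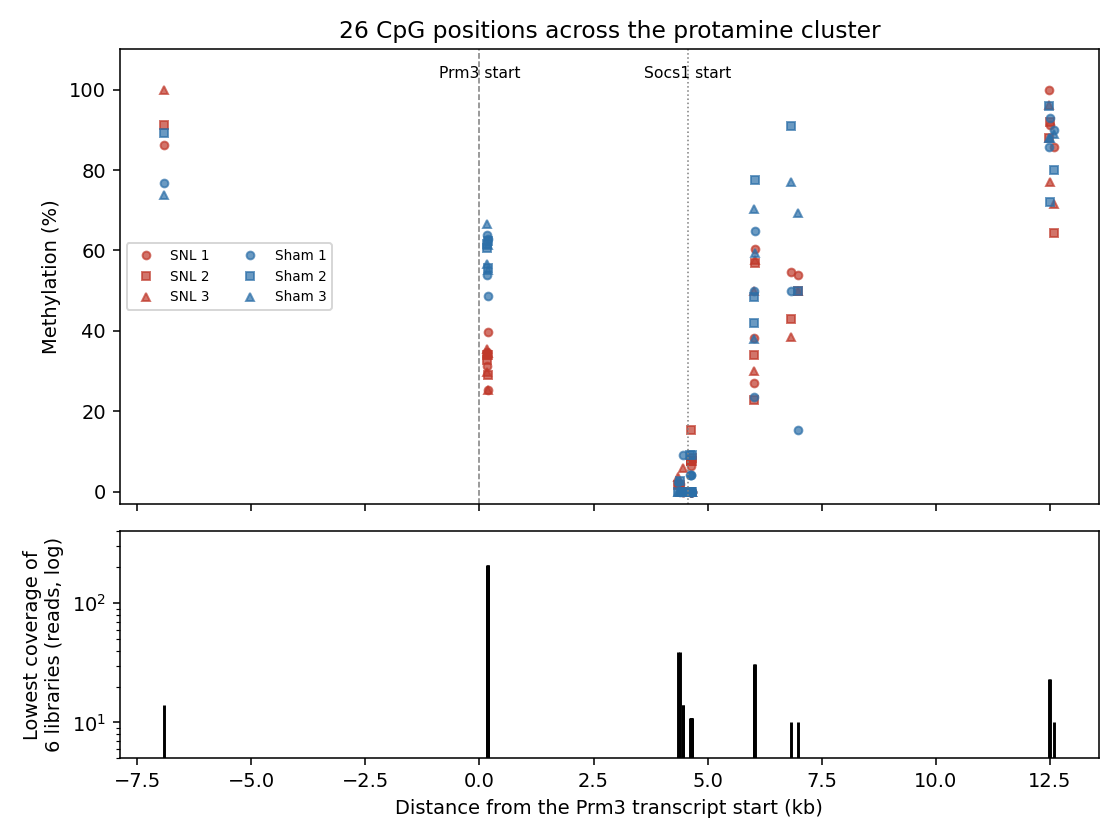
Upper panel: methylation (%) of the 26 cluster positions against distance from the Prm3 start in kb, 3 SNL (red) and 3 Sham (blue) libraries, with the Prm3 and Socs1 starts as vertical lines. Lower panel: the lowest coverage of the 6 libraries in reads (log axis). Red and blue points separate at the Prm3 sites and overlap at the 22 others, whose coverage is lower.

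The 22 other positions averaged 27.3% ± 0.837 in SNL and 28.7% ± 2.29 in Sham libraries (SD, n = 3 each), a difference of -1.35 points ± 1.41 (SE). Of them 8 were lower in SNL, 13 were higher and 1 was at 0 in every library. Their coverage was 10 to 84 reads. The farthest upstream position, at -6910 bp from the Prm3 start, stood at 86.1%, 91.2% and 100.0% in SNL libraries and 76.7%, 89.3% and 73.7% in Sham libraries, and the groups overlapped.

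The start of Socs1 lay 4570 bp downstream of that of Prm3. The 13 positions within 1000 bp of it were almost unmethylated, at 2.37% ± 2.82 in SNL and 1.15% ± 1.00 in Sham libraries (SD, n = 3 each). They had 11 to 84 reads, and the highest single value was 15.4% in SNL 2. Beyond this stretch methylation was higher in both groups. At 6010, 6017 and 6047 bp from the Prm3 start the mean of 3 CpGs was 41.9%, 37.9% and 45.8% in SNL libraries and 46.1%, 55.9% and 55.9% in Sham libraries, at 29 to 48 reads. The 3-CpG means of the groups did not overlap, by a gap smaller than 1 point. The difference was -10.7 points ± 3.99 (SE), and no single CpG of the 3 had groups that were fully apart. At 12476 to 12605 bp the mean of 3 CpGs was 85.1% ± 6.28 in SNL and 86.8% ± 3.69 in Sham libraries. The nearest deeply read site past the region, 17.5 kb downstream of the Socs1 start, had 551 to 906 reads and stood at 72.5%, 69.4% and 65.3% in SNL libraries and 67.7%, 68.3% and 69.9% in Sham libraries. Its groups overlapped. Coverage at the Prm3 sites was higher than at every other position of the region, and the part of depth in the contrast between them was not tested.

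The 61 positions within 100 kb on each side of the region averaged 63.8% ± 1.20 in SNL and 64.3% ± 1.23 in Sham libraries, a difference of -0.418 points ± 0.993 (SE). With SNL lower, 2 of the 61 had groups that did not overlap, and with SNL higher, 3 of the 61 did, beside 6.62% and 3.59% of all positions. Nothing is read from these counts.

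Other genes that share the setting of the protamines were then compared, with the reads of a gene's annotated sites added up, by the same limma-moderated test adjusted over 8016 genes. Over all 8016 genes 0.536% were called, 0.511% lower and 0.025% higher, and the median difference was -0.765 points. Sites carry the name of the closest start, which can be far away.

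Of 17 nuclear proteins of spermiogenesis 6 were measured, with a median difference of -1.24 points. Prm3, whose call follows from how the cluster was chosen, is 1 of the 6. It was listed with the protamine genes, although its mouse product is found in the cytoplasm. Of the other 5, 0 were called, and their median difference was -1.23 points. Brdt, a bromodomain protein that removes acetylated histones in spermatids, stood at 85.9% ± 2.57 in SNL and 88.3% ± 1.79 in Sham libraries at a site 9.1 kb upstream. Camk4, a calcium-dependent kinase of spermatids and neurons, stood at 80.8% ± 1.70 in SNL and 82.0% ± 0.0868 in Sham libraries (SD, n = 3 each; adjusted p of the limma-moderated test 0.661 and 0.763). Tnp1, the other transition protein gene, was singled out after its values were seen because 3 of its sites lie in its own promoter, at -21 to 30 bp. These were at 96.6%, 96.3% and 97.1% in SNL libraries and 97.4%, 97.9% and 95.4% in Sham libraries, with 173 to 236 reads. This promoter was thus nearly fully methylated in both groups, at a depth close to that of Prm3, and its difference was -0.24 points ± 0.813 (SE).

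Of 32 late testis genes 12 were measured and 0 were called. Their median difference was -1.71 points. Akap4, a scaffold protein of the sperm tail measured at -19.5 kb or farther from its start, stood at 90.2% ± 1.01 in SNL and 92.9% ± 0.244 in Sham libraries. Zpbp, an acrosomal protein, stood at 82.6% ± 1.04 in SNL and 86.4% ± 0.588 in Sham libraries at sites 933.4 kb or more from its start. Acr, the acrosomal protease acrosin, measured at -22.5 kb or farther from its start, stood at 78.1% ± 0.627 in SNL and 84.0% ± 2.05 in Sham libraries (SD, n = 3 each). The adjusted p of these 3 genes was 0.0857, 0.093 and 0.145 in the limma-moderated test. Over the whole list, all SNL libraries were below all Sham libraries at 6 of 12 genes, beside 17.9% of all genes. The same held for 1 of 6 spermiogenesis genes, which is Prm3, for 3 of 10 germline genes and for 3 of 8 genes beside the cluster. The difference between these shares was not tested. The late testis genes had no site flagged as promoter.

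Of 28 germline genes known for promoter methylation in somatic tissue 10 were measured and 0 were called, with a median difference of -0.943 points. Only Dazl was read at promoter sites, so the values of the other genes do not describe their promoters. Asz1, a protein of the piRNA pathway, stood at 62.5% ± 2.03 in SNL and 71.8% ± 2.40 in Sham libraries, at sites 84.5 kb or more from its start. Tdrd5, a Tudor domain protein of the same pathway, stood at 75.2% ± 3.12 in SNL and 82.8% ± 2.11 in Sham libraries, at a site 4.1 kb from its start. Mael, also of that pathway, stood at 90.6% ± 2.14 in SNL and 93.2% ± 0.718 in Sham libraries, at sites 13.8 kb or more from its start. The adjusted p was 0.0817 for Asz1, 0.376 for Tdrd5 and 0.323 for Mael (limma-moderated test). Dazl, an RNA-binding protein of germ cells chosen after its values were seen, had 12 promoter sites at 84.9% ± 0.736 in SNL and 85.0% ± 0.343 in Sham libraries.

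Of 17 genes on either side of the cluster 8 were measured, and 2 were called lower in SNL. Their median difference was -3.32 points. Nubp1, a factor of iron-sulphur protein assembly, had 3 sites flagged as intronic, 7.3 kb from its own start and 395.2 kb from that of Prm3. They stood at 71.4%, 72.1% and 67.8% in SNL libraries and 89.5%, 88.9% and 85.2% in Sham libraries. All SNL libraries were below all Sham libraries, with a difference of -17.4 points (adjusted p = 0.011, limma-moderated test). The 3 sites, at positions 5209881 to 5209917, are closer than 1 read length, so the same reads can enter that test more than 1 time. Without SNL 2, SNL 3 or Sham 2 the adjusted p of that test was 0.0785, 0.0686 and 0.0576. With the unmoderated F test the adjusted p of Nubp1 was 0.507. Litaf, a protein of the endosome and lysosome membrane, had 2 sites at -216.6 kb from the Prm3 start, with 11.1%, 9.07% and 7.83% in SNL libraries and 23.3%, 24.0% and 17.3% in Sham libraries. Its difference was -12.2 points (adjusted p = 0.0474, limma-moderated test). The 2 sites, at positions 4598139 and 4598178, are also closer than 1 read length, so the same limit applies to that test. Without SNL 2, SNL 3, Sham 1, Sham 2 or Sham 3 the adjusted p of that test was 0.187, 0.19, 0.0863, 0.155 and 0.115. For Litaf it was 0.0513 with library offsets, 0.0916 with limma on logit values and 0.534 with the unmoderated F test. Emp2, a membrane protein 515.5 kb away, stood at 55.6% ± 7.24 in SNL and 67.4% ± 4.20 in Sham libraries and did not pass (adjusted p = 0.273). The remaining 5 genes differed by -3.52 to 0.823 points.

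**Figure D3:**
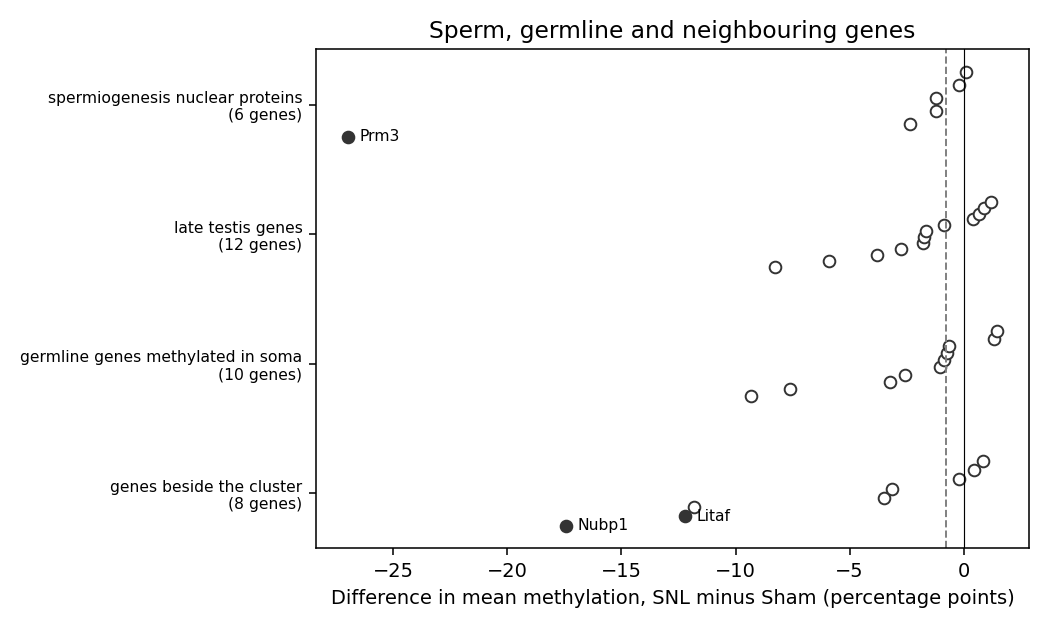
Difference in mean methylation, SNL minus Sham, in percentage points (x axis) for each measured gene of 4 lists (rows). Filled points were called and are named, open points were not, and the call of Prm3 follows from how the cluster was chosen; the dashed line is the median of all 8016 genes (-0.765 points). Prm3 lies at -27.0, Nubp1 at -17.4 and Litaf at -12.2 points.

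Last, the pattern of Prm3 over the 6 libraries was compared with that of the 4205 other genes with 3 or more annotated sites, as the root mean square distance in percentage points after each gene was centred on its own mean. The closest were Specc1 (5.21 points), Nubp1 (5.25), Oxa1l (6.79), Neurl3 (7.29) and Hmga1 (7.59). Specc1, a protein with a coiled coil, stood at 51.2%, 51.9% and 55.6% in SNL libraries and 67.0%, 73.6% and 70.5% in Sham libraries. Its 4 sites were flagged as intronic and lay 7.6 to 123.4 kb from its start. Oxa1l, which inserts proteins into the inner mitochondrial membrane, stood at 61.1%, 60.3% and 57.9% in SNL and 72.7%, 72.4% and 74.8% in Sham libraries. Its 5 sites were flagged as intronic and lay 15.1 to 20.1 kb from its start. The flag does not say whose intron it is. Neurl3, a ubiquitin ligase, was the 1 of the 5 whose sites lay in a promoter, at 49.4%, 45.9% and 40.8% in SNL and 54.4%, 58.8% and 63.5% in Sham libraries. Hmga1, a chromatin protein that binds AT-rich DNA, stood at 52.6%, 57.0% and 57.6% in SNL and 69.1%, 65.2% and 71.8% in Sham libraries at 3 sites 13.2 kb or more upstream. All 5 were chosen for likeness to a gene that differs between the groups, so nothing is read from their differences here. Nubp1 also stood among the genes beside the cluster, where its test is given. Each was smaller than that of Prm3, at -17.5, -17.4, -13.5, -13.5 and -13.0 points in the order named. Of the genes with 3 or more sites, 1 had a loss as large as that of Prm3, namely Prm3 itself, and of all 8016 genes 3 did, Prm3 included.

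**Figure D4:**
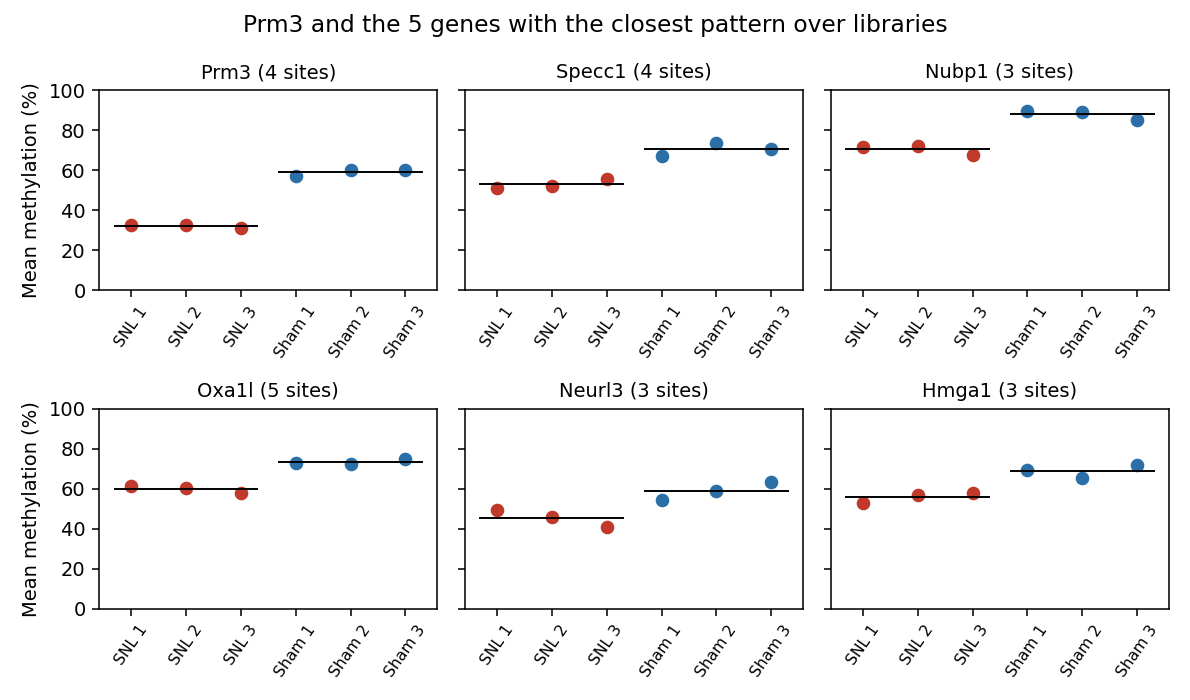
Mean methylation (%, y axis) of Prm3 and of the 5 genes closest to it over the 6 libraries (x axis), SNL in red and Sham in blue, with group means as black bars. All 6 genes have the SNL libraries below the Sham libraries, with differences from -27.0 (Prm3) to -13.0 points (Hmga1).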

How the data were processed

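The submitters' processing notes name Bismark 0.18.1, Bowtie2, methylKit 1.3.3 and the rat build rn4, whereas a human assembly is named in the protocol of the labels. For each CpG cytosine, the authors deposited per library its coverage, a count of reads, and what percent read C or T. The authors' deposited table of 32674 nuclear sites with coverage of at least 100 adds gene flags, distances, p-values, q-values and a difference score, none of whose tests is used here. Rows of mitochondrial DNA were left out.

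Methylated counts were recovered as coverage times percent. Percentages of annotated sites were equal in both sources to within 5e-09 points. Accessions were matched to RefSeq symbols of GRCr8, for names only (7622 of 8123 transcripts). At each of 424646 positions with 10 reads or more in all 6 libraries, counts were fitted by logistic regression on group. The overdispersion (4 residual degrees of freedom) was moderated with squeezeVar of limma 3.58.1 and kept at 1 or above, followed by a two-sided F test with Benjamini-Hochberg adjustment at 0.05. The 13328 positions at 0% or 100% in every library had a p of 1 and stayed out of the moderation. Gene sums were fitted likewise, and differences are means of site percentages, SNL minus Sham. Sites named are all member sites, and the 3 lowest p-values of each list (fewer where Prm3 is 1), others as stated. The members, lists and tests were chosen with earlier results of these data known. Alternatives were other coverage minimums, library offsets, no moderation, limma on logit values (pseudocount 1), a replicate block and leaving out each library. Software was R 4.3.3, Python 3.11.15, numpy 2.4.6, pandas 2.3.3, scipy 1.17.1, statsmodels 0.14.6 and matplotlib 3.10.9.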

Additional observations from a re-analysis of the deposited data

How the results depend on the processing

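The mean difference of the Prm3 sites was -27.9 to -26.5 points without any 1 library, and that of the 22 other cluster positions was -2.66 to -0.536 points. With pooled reads the values were -27.0 and -1.17 points, and with 20 reads or more the others gave -3.28 points. The count of called cluster positions was 4 of 26, all at Prm3. It was also 4 at minimums of 20 and 100 reads, with library offsets and without each library in turn (4 to 4). Over all positions tested, the share called was 0.561% at 20 reads, 1.42% at 100 reads and 0.313% with offsets. Without a library that share was 0.0801 to 0.208%. At 100 reads the 4 Prm3 sites were the only cluster positions left. This contrast chose these sites, so nothing is read from their calls under any setting. The cluster count was 0 with limma on logit values and 0 with the unmoderated F test, which called 0 of all positions. At an unadjusted p under 0.05 the moderated test had 6 cluster positions, limma 6 and the F test 4. In each test 4 of these were the Prm3 sites, which this contrast chose. The share of all positions under that cutoff is not given here, so nothing is read from these counts. With unvarying positions kept in the moderation the count was 0 of 26, and with a minimum of 100 reads it was 4; both were chosen after seeing the data. The cause of these losses was not tested.

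With a replicate block the count was 0 of 26, and 4 at a minimum of 100 reads, a setting chosen after seeing the data. Deviations of same-numbered libraries over annotated sites correlated at -0.055, 0.256 and -0.135 for numbers 1 to 3. Those of differently numbered SNL and Sham libraries correlated at -0.293 to 0.341. The numbers were not taken as pairs. With 3 libraries per group these correlations cannot show whether libraries share an animal, so the unpaired test may ignore a pairing. Called list genes numbered 3 (Prm3, Nubp1 and Litaf), 0 with the unmoderated F test, 2 with limma, offsets or the block, and 1 to 4 without a library. At an unadjusted p under 0.05 the moderated test had 10 list genes, Prm3 included, the F test 8 and limma 12. The 4 lists held 6, 12, 10 and 8 measured genes. The share of all 8016 genes under that cutoff is not given here, so nothing is read from these counts. Depth limits the cluster outside Prm3, where coverage in the shallowest library was 10 to 39 reads.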
